A study of Homo sapiens with 48 samples.

Results

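MFN2 was silenced by siRNA (small interfering RNA) in IMR-90 cells made senescent with doxorubicin, and mRNA was counted in 3 libraries with siMFN2 and 3 with the negative control siRNA, cNEG. These 6 libraries were chosen by their labels, out of 48 in the whole series. The series covers IMR-90, a line of human fetal lung fibroblasts, and SK-MEL-103, a human melanoma line, in 16 groups of 3. Transfection came 1 day before doxorubicin, which was given at 200 nM for 48 h and then removed, and RNA was taken on day 7, so every cell compared here had both an siRNA and the drug. Beside siMFN2 and cNEG, the same experiment holds senescent IMR-90 with siMFN1, with siMFN1+2 and with siMAVS, and proliferating IMR-90 with cNEG and no doxorubicin, each in 3 libraries, while SK-MEL-103 gives 3 senescent libraries with siMFN2 and 3 with cNEG. The model is 1 cell line, the silencing is transient and left some MFN2 mRNA, and the siRNA sequences are not given in the sources used here. The labels do not say whether libraries of a group came from separate cultures, so the p-values measure the spread between these libraries, which may be technical. Cells were measured in bulk, where fewer cells of a kind and less RNA per cell cannot be told apart.

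MFN1 and MFN2, the mitofusins, are GTPases of the outer mitochondrial membrane that join the membranes of neighbouring mitochondria, and MFN2 is also found where the endoplasmic reticulum (ER) touches mitochondria. MAVS sits on the same membrane and passes signals from RNA sensors to interferon and NF-kB. Senescent fibroblasts stop dividing and release cytokines, chemokines, proteases and growth factors, together called the senescence-associated secretory phenotype (SASP), many of them under NF-kB.

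MFN2 mRNA was at 149, 156 and 174 CPM (read counts scaled to one common library total) in cNEG libraries 1, 2 and 3 and at 16.3, 19.2 and 16.3 in siMFN2 libraries 1, 2 and 3. All siMFN2 libraries lay far below all controls, in the direction of their labels. The log2 fold change was -3.20 (SE 0.12, adjusted p = 1.6e-09 by edgeR). MFN2 (ENSG00000116688, chromosome 1, 11980181 to 12013514, plus strand, GRCh38) is a protein-coding gene. Its paralog MFN1 was called by neither fit described below: it was at 47.7, 61.9 and 37.5 CPM against 59.7, 70.9 and 48.1 (0.28, SE 0.25, adjusted p = 0.69), higher in each pair of libraries of the same number but with groups that overlapped. MAVS was at 123.3 ± 19.9 CPM (mean ± SD, n = 3) with cNEG and 155 ± 17.8 with siMFN2 (adjusted p = 0.36). Fibroblast markers summed to 23245 to 37759 CPM in the controls and 18763 to 42361 with siMFN2, and all 12 had a mean of 1 CPM or more. Of the markers of other cell types, 7 of leukocytes summed to 2.57 to 3.41 CPM with cNEG and 1.15 to 2.02 with siMFN2, 6 of endothelium to 28.7 to 119 and 22.2 to 55.1, 7 of epithelium to 141 to 212 and 188 to 304, and 8 of melanocytes to 31.0 to 58.0 and 45.1 to 70.8.

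Each gene was tested in 2 ways, and both are given because they differ in how many genes they call. The fit of all 18 libraries of the IMR-90 siRNA experiment ignores the replicate number, and the paired fit of the 6 libraries takes it as a block, since libraries of the same number deviated together in both groups. At an adjusted p below 0.05, the fit of 18 libraries called 18 genes higher and 25 lower with siMFN2, 0.225% of the 19077 tested. The paired fit called 1369 higher and 1301 lower, or 7.57% and 7.19% of 18095 tested, and 41 of the 43 genes were among them. In 9.02% of the 19077 genes every siMFN2 library lay below every control, and in 8.25% every one lay above. Below, "rose" and "fell" are used of genes called by the fit of 18 libraries, and the rest are described as called lower or higher in the paired fit. A share of a gene list near 7.57% higher or 7.19% lower in the paired fit is that of all genes. Library 3 of cNEG, siMFN1, siMFN2, siMFN1+2 and proliferating IMR-90 has a label in a later range than libraries 1 and 2. All siMAVS libraries are in the earlier range, and the labels do not say what the ranges stand for. Pair 1 was also the most deeply sequenced (68488596 counts with cNEG and 73456490 with siMFN2, against 29536519 and 26137882 in pair 3). Without it the paired fit called 0.805% of genes higher and 0.919% lower, without pair 2 6.49% and 6.18%, and without pair 3 11.5% and 10.0%. Without pair 3 it thus called more genes from fewer libraries. Counts of a gene list without a pair, given below, stand beside these shares. Few calls without pair 1 are also what all genes show. Groups of 3 libraries estimate the spread poorly, and the block leaves the paired fit still less to estimate it from. Its SEs and p-values are thus less sure than their size implies. The part of depth in this was not tested.

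Short stretches before the transcription start are printed here for 4 inflammatory genes and 3 ER genes that were called lower together in the paired fit, because they show the sequence shared within each set. All are from RefSeq on GRCh38.p14, 120 bases upstream of the start and on the gene's own strand, chosen after the values were seen because they hold the match. In the first 4, capitals mark matches to GGNNTTTCC on either strand, an NF-kB-like motif. CXCL1 (chr4:73869273-73869392, plus strand), CXCL6 (chr4:73836558-73836677, plus), CXCL8 (chr4:73740449-73740568, plus) and IL6 (chr7:22727080-22727199, plus) read as follows.
CXCL1: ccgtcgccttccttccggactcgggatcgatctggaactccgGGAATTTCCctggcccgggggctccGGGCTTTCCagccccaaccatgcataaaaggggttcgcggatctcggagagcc
CXCL6: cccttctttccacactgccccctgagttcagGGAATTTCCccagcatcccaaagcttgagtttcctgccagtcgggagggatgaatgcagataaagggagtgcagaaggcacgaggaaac
CXCL8: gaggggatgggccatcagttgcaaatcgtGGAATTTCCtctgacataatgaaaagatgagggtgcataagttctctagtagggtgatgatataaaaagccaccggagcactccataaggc
IL6: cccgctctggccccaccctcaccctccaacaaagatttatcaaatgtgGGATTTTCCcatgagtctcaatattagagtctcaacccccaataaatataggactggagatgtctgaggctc
In the other 3, capitals mark CCAAT and CCACG with 9 bases of any kind between them on either strand, an ER-stress-element-like motif. HSPA5 (chr9:125241344-125241463, minus strand), HSP90B1 (chr12:103930290-103930409, plus) and CRELD2 (chr22:49918514-49918633, plus) read as follows.
HSPA5: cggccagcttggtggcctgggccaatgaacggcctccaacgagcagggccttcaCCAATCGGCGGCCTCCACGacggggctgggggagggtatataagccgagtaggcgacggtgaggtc
HSP90B1: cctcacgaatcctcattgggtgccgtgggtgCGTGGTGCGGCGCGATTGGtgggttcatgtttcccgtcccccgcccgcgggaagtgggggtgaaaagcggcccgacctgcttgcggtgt
CRELD2: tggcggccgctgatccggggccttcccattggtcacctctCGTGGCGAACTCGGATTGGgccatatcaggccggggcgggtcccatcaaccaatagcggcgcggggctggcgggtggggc
In the 250 bases before any listed start, GGNNTTTCC occurred in 9 of the 22 SASP cytokines and chemokines with a RefSeq promoter (40.9%) and in 17 of 21 NF-kB genes (81%), against 6.69% of all 27305 genes in the table. A pair of TTTC with 2 bases of any kind between, interferon-response-like, occurred in 27 of 42 interferon-stimulated genes (64.3%), against 3.71% of all genes. The ER-stress-element-like motif occurred in 6 of 20 genes of the ER unfolded protein response (30%) and in 25 genes of all (0.0916%). These are matches of letters and do not show that a factor binds there, and each list was drawn up from genes known for that control.

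SERINC2, a transmembrane member of the serine incorporators, was at 124, 153 and 181 CPM with cNEG and 354, 411 and 373 with siMFN2. The siMFN2 libraries were all higher, by a log2 fold change of 1.31 (SE 0.17, adjusted p = 0.0046). It was also 1 of 2 genes among the 43 called in the direct comparison of siMFN2 with siMFN1, where 0.377% of 19077 genes were called: SERINC2 was at 211 ± 19.4 CPM with siMFN1 (difference 0.84, SE 0.17, adjusted p = 0.041), and MFN2 was the other. It stood at 336 ± 27.2 CPM with siMFN1+2, 381 ± 47.97 with siMAVS and 134 ± 28.6 in proliferating cells. By mean, the order was proliferating cells, cNEG, siMFN1, siMFN1+2, siMFN2 and siMAVS. The ranges of the first 2 groups overlap and so do those of the last 3, while siMFN1 lay between them without overlap. Over the 18 libraries, the genes whose log2 CPM followed that of SERINC2 most closely were ANKRD46 (Pearson r 0.915), TSPYL1 (0.909), GAMT (0.898), PCBP4 (0.890) and IVD (0.887), as a description of libraries that share their groups.

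INMT, a methyltransferase of small amines, was at 3.999, 5.52 and 4.29 CPM with cNEG and 18.4, 19.9 and 18.1 with siMFN2. The groups were far apart, and the gene rose by 2.03 (SE 0.39, adjusted p = 0.049), although its exons are shared with a readthrough transcript, INMT-MINDY4. ILDR2, an immunoglobulin-like receptor, was at 0.993, 3.38 and 0.513 CPM against 19.98, 18.4 and 8.32, and rose by 3.20 (SE 0.59, adjusted p = 0.044). The cNEG library 2 was the highest control and still lay below all siMFN2 libraries. SYPL2 (1.11, adjusted p = 0.048), a synaptophysin-like membrane protein, ANKRD46 (1.10, adjusted p = 0.0046) and QSER1 (0.93, adjusted p = 0.032) rose as well.

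Several of the genes that rose act in the nucleus or in mitochondria. SMC1A, a cohesin subunit, was at 52.2, 65.5 and 63.04 CPM against 108, 98.8 and 109 (0.81, SE 0.11, adjusted p = 0.0064), with a clear gap between groups. MLX, the partner of carbohydrate-sensing transcription factors, rose by 0.71 (adjusted p = 0.035), NACC2 by 0.74 (adjusted p = 0.049) and the pseudouridine synthase PUS7L by 0.82 (adjusted p = 0.026). Mitochondrial enzymes of amino acid and ketone breakdown were among them: ACAT1, the acetyl-CoA acetyltransferase, was at 31.3, 32.6 and 35.2 CPM against 49.9, 51.6 and 51.5 (0.63, SE 0.11, adjusted p = 0.033). The siMFN2 libraries were the more uniform group for ACAT1, and no control reached their range. AASS, which starts lysine degradation, rose by 0.80 (adjusted p = 0.046), and so did CAT, the peroxisomal catalase, from 45.6 ± 3.62 to 67.5 ± 3.73 CPM (0.57, SE 0.10, adjusted p = 0.044).

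Of the genes that fell, BST1, an ectoenzyme of NAD metabolism, was at 21.3, 17.7 and 15.8 CPM with cNEG and 4.23, 3.96 and 3.91 with siMFN2 (-2.18, SE 0.40, adjusted p = 0.044). AMPD3, an AMP deaminase, was at 118, 81.3 and 109.7 against 47.6, 42.6 and 31.97 CPM (-1.34, SE 0.20, adjusted p = 0.012). In both genes every siMFN2 library lay below every control. ABI3BP, a matrix protein, was at 13.03, 8.23 and 7.95 against 2.32, 2.42 and 1.24 CPM (-2.25, SE 0.33, adjusted p = 0.011), and MELTF, melanotransferrin, at 4.19, 3.18 and 3.52 against 0.950, 0.936 and 0.536 (-2.10, SE 0.24, adjusted p = 0.0027). The lysophospholipase D gene GDPD1 (-1.66, adjusted p = 0.0097), the ATP-gated channel gene P2RX6 (-1.57, adjusted p = 0.029), the phospholipase gene PLA2G4C (-1.15, adjusted p = 0.04) and the peptidase gene SCPEP1 (-0.89, adjusted p = 0.029) fell too. LOXL2-AS1 (-1.85), DLGAP1-AS2 (-1.39) and AP1G2-AS1 (-1.31) fell (adjusted p = 0.049, 0.035 and 0.044), but each lies opposite a coding gene and the strand setting of the counting is not given, so their reads cannot be told apart from the partner's.

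**Figure D1:**
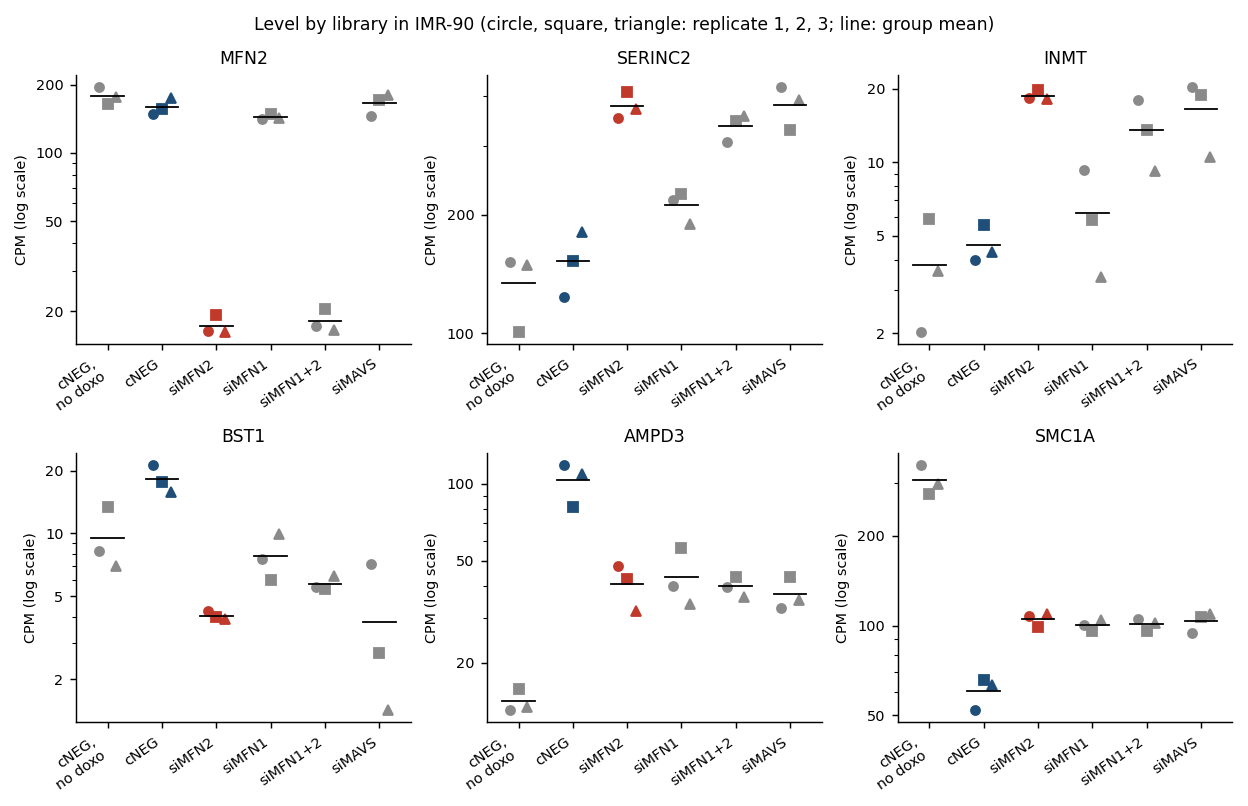
CPM on a log axis of MFN2, SERINC2, INMT, BST1, AMPD3 and SMC1A in each library of the 6 IMR-90 siRNA groups (circle, square and triangle for replicates 1, 2 and 3, line for the group mean; cNEG blue, siMFN2 red). MFN2 was at 16.3 to 19.2 CPM with siMFN2, while SERINC2, INMT, BST1, AMPD3 and SMC1A lay outside the cNEG range in siMAVS as well.

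The other 18 called genes fall outside the rule for named genes, and those given here were picked after their values were seen. Several of them, among them PCDHA6 and PCDHA10 of the protocadherin alpha cluster and the antisense genes POU2F2-AS1 and POU2F2-AS2, share exons or lie opposite another gene, so their counts are uncertain. Those that fell included the kinesin gene KIF5C (-2.28, adjusted p = 0.0064), PHEX, an endopeptidase of phosphate balance (-1.74, adjusted p = 0.029), the tetraspanin gene TSPAN6 (-0.81, adjusted p = 0.044) and DRAM1, a p53-induced lysosomal protein (-0.77, adjusted p = 0.04999). KIF5C was at 1.44, 1.10 and 1.14 CPM with cNEG and 0.298, 0.218 and 0.206 with siMFN2, without overlap. Those that rose included NONO, a nuclear RNA-binding protein (220.2 ± 27.4 against 329 ± 20.2 CPM, 0.58, adjusted p = 0.048).

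The levels of the other siRNA groups stand beside these. AMPD3 stood at 43.2 ± 11.4 CPM with siMFN1, 39.7 ± 3.65 with siMFN1+2 and 37.1 ± 5.54 with siMAVS, and SMC1A at 100.4 ± 4.26, 101 ± 4.69 and 104 ± 8.10 CPM, and these comparisons share the cNEG libraries with the one above. Tested directly, siMFN2 differed from siMAVS in 4 genes (0.0210% of 19077): MAVS, DSG2 and ARF3 were higher and MFN2 lower. Against siMFN1+2 it differed in 1 gene (0.00524%), MFN1, at 59.6 ± 11.4 against 11.3 ± 4.999 CPM (2.36, SE 0.27, adjusted p = 0.0052). Of the 43 genes, 1, MFN2, was called against siMAVS and 0 against siMFN1+2, where 361 genes of all had an unadjusted p under 0.05 by edgeR and 22 were called by DESeq2. A gene not called there is not shown to be equal.

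SASP cytokines and chemokines had a median log2 fold change of -1.88 in the fit of 18 libraries over the 24 of 29 that passed the filter on low counts, against -0.01 over all genes. The edgeR fit of 18 libraries called 0, with 14 at an unadjusted p under 0.05 and 3 called lower by DESeq2. The paired fit called 15 lower and 1 higher of 23, against 7.19% and 7.57% of all genes. In 17 of the 24, and in 9.02% of all genes, every siMFN2 library lay below every control. The median differed between pairs, at -1.42, -0.79 and -2.42 for pairs 1, 2 and 3, and without pair 1 the paired fit called 8 lower and 0 higher, against 0.919% and 0.805% of all genes. In the fit of 18 libraries, against the same cNEG libraries, the median was -1.60 with siMFN1, -2.31 with siMFN1+2 and -1.38 with siMAVS. Leukocyte markers were also lower with siMFN2, at the sums given above. Of these 7 markers, 5 had a mean below 1 CPM with cNEG and 7 with siMFN2, and their part in these results was not tested.

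CXCL8, a neutrophil attractant, was at 221, 104 and 320.4 CPM with cNEG and 31.5, 32.97 and 9.02 with siMFN2. It was lower in each pair, and library 3 held both the highest control and the lowest value of the 6 (-3.12, SE 0.96, adjusted p = 0.17; paired -3.09, SE 0.51, adjusted p = 0.0055). CXCL1 was at 58.7, 24.04 and 67.1 against 4.91, 6.12 and 2.06 CPM (adjusted p = 0.08; paired -3.37, SE 0.41, adjusted p = 0.0016). CXCL6 was at 13.7, 4.05 and 3.11 against 0.841, 0.675 and 0.165 CPM (adjusted p = 0.069; paired -3.57, SE 0.29, adjusted p = 0.00025). Both are further ligands of the neutrophil receptor CXCR2, and in both the groups did not overlap. Reads of CXCL1, CXCL2 and CXCL3 may be shared in part, since these genes are near-identical copies. CCL20, which attracts CCR6-bearing lymphocytes, was at 15.7, 4.22 and 5.82 against 1.42, 1.83 and 0.0412 CPM (adjusted p = 0.16; paired adjusted p = 0.0062).

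IL6 was at 93.3, 57.6 and 140.4 CPM with cNEG and 34.6, 29.4 and 11.9 with siMFN2 (-1.93, SE 0.66, adjusted p = 0.22; paired -1.91, SE 0.38, adjusted p = 0.012). IL1B, an upstream cytokine of the SASP, was at 91.5, 68.1 and 49.7 against 23.01, 31.1 and 3.75 CPM (-1.84, SE 1.24, adjusted p = 0.56; paired -2.13, SE 0.35, adjusted p = 0.0055). The monocyte attractant CCL2 was at 30.9, 31.1 and 68.9 against 9.41, 11.1 and 12.6 CPM (-1.98, SE 0.45, adjusted p = 0.079; paired -1.87, SE 0.17, adjusted p = 0.00035). Each of the 3 was lower in every siMFN2 library than in every control, and pair 3 showed the largest ratio in each. CCL3, a chemokine of monocytes, was called higher: it was at 3.84, 5.63 and 0.879 against 12.2, 15.9 and 0.577 CPM (adjusted p = 0.53; paired 1.38, adjusted p = 0.0088). It was higher in pairs 1 and 2 and lower in pair 3, and the groups overlapped.

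**Figure D2:**
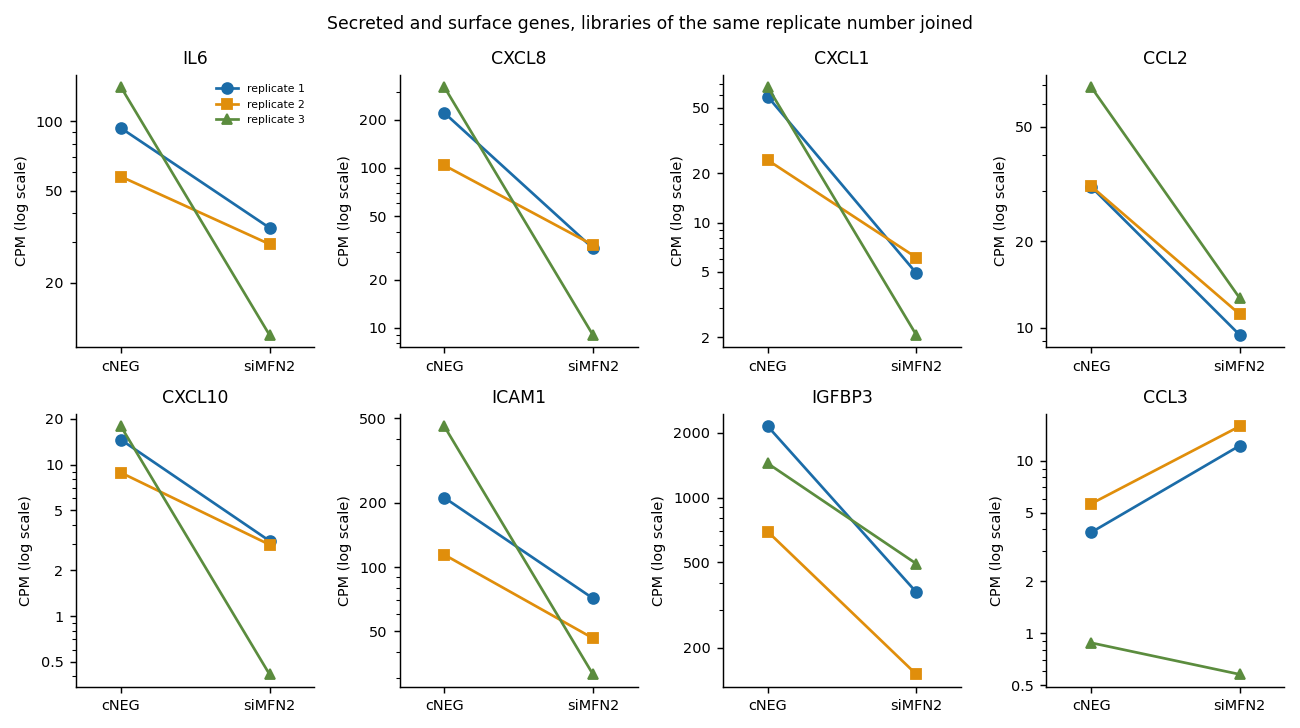
CPM on a log axis of 8 secreted or surface genes in cNEG and siMFN2, with libraries of the same replicate number joined. IL6, CXCL8, CXCL1, CCL2, CXCL10, ICAM1 and IGFBP3 were lower with siMFN2 in each of the 3 pairs, and CCL3 was higher in pairs 1 and 2.

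Among SASP proteases and growth factors, 37 of 38 tested, 0 were called by the fit of 18 libraries (10 at an unadjusted p under 0.05, and 1 called by DESeq2), and the paired fit called 14 lower and 5 higher (median -0.40). Of all genes the paired fit called 7.19% lower and 7.57% higher. Without pair 1 it called 5 lower and 1 higher of the list, against 0.919% and 0.805% of all genes. IGFBP3, a carrier of insulin-like growth factors, was at 2145, 694 and 1441 CPM against 363, 151 and 492 (adjusted p = 0.36; paired -2.11, SE 0.17, adjusted p = 0.00025). It was lower in each pair, and the cNEG library 2 was nearest to the siMFN2 range. PTX3, a secreted pattern recognition protein, was at 264 ± 202 against 67.1 ± 14.4 CPM (paired -1.69, adjusted p = 0.0057), and the collagenase MMP1 at 1424 ± 1124 against 437 ± 233 CPM (paired -1.52, adjusted p = 0.001). ANGPTL4, an inhibitor of lipoprotein lipase, was called lower as well (paired -1.30, adjusted p = 0.00079).

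Of the 5 called higher, IGFBP2, a further carrier of the same growth factors, was at 9.44, 6.43 and 26.4 CPM with cNEG and 46.1, 21.6 and 46.3 with siMFN2 (adjusted p = 0.39; paired 1.62, SE 0.23, adjusted p = 0.0026). It was higher in every pair, though the control library 3 overlapped the siMFN2 group. The others were called higher by smaller amounts: the cathepsin CTSB by 0.34 (adjusted p = 0.049), IGFBP5 by 0.54, FGF7 by 0.47 and AREG, a ligand of the epidermal growth factor receptor, by 0.45 (adjusted p = 0.015, 0.029 and 0.041). In the fit of 18 libraries IGFBP5, FGF7 and AREG, which were not called there, took the opposite sign when siMFN2 library 3 was left out (-0.49, -0.27 and -0.50).

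The NF-kB list, its subunits, feedback inhibitors and adhesion targets, had 22 tested members. The fit of 18 libraries called 0 (8 at an unadjusted p under 0.05, and 3 called by DESeq2). The paired fit called 9 lower and 0 higher (median -0.64 in that fit), against 7.19% and 7.57% of all genes. Without pair 1 it called 4 lower, against 0.919% of all genes. ICAM1, the leukocyte adhesion receptor, was at 212, 114 and 458 CPM with cNEG and 71.3, 46.3 and 31.4 with siMFN2 (-2.39, SE 0.51, adjusted p = 0.068; paired -2.19, SE 0.40, adjusted p = 0.0087). The groups did not overlap, and library 3 held the highest and the lowest value of the 6. BIRC3, an inhibitor of apoptosis, was at 31.2 ± 3.998 against 14.3 ± 6.42 CPM (paired -1.20, adjusted p = 0.0045). TNFAIP2 and TNIP3 were called lower at levels of 2.34 CPM or less (paired -1.25 and -1.15, adjusted p = 0.033 and 0.025). In the fit of 18 libraries the list median was -0.59 with siMFN2, -0.58 with siMFN1, -0.89 with siMFN1+2 and -0.67 with siMAVS.

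Interferon-stimulated genes, 52 of 53 tested, had a median of -0.55 in the fit of 18 libraries, with 0 called by the fit of 18 libraries (20 at an unadjusted p under 0.05, and 5 called lower by DESeq2) and 19 called lower and 2 higher in the paired fit (8 and 0 without pair 1). Of all genes the paired fit called 7.19% lower and 7.57% higher, and 0.919% and 0.805% without pair 1. In 20 of the 52 every siMFN2 library lay below every control, and in 1 above, against 9.02% and 8.25% of all genes. The list median in the fit of 18 libraries was -0.43 with siMFN1, -1.05 with siMFN1+2 and -0.68 with siMAVS. CXCL10, an interferon-induced chemokine, was at 14.6, 8.85 and 17.9 CPM with cNEG and 3.13, 2.96 and 0.412 with siMFN2 (-2.55, SE 0.78, adjusted p = 0.17; paired -2.52, SE 0.42, adjusted p = 0.0057). Library 3 was again the lowest siMFN2 value and the highest control. IFI44 was at 4.86, 5.19 and 6.96 against 2.13, 2.05 and 1.07 CPM (paired -1.58, SE 0.25, adjusted p = 0.0045), and BST2, which tethers virions, at 1.97 ± 0.550 against 0.329 ± 0.266 CPM (paired adjusted p = 0.0076). OAS1, which senses double-stranded RNA, was at 1.96 ± 1.61 against 0.293 ± 0.229 CPM (paired adjusted p = 0.033).

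Not all of the list behaved alike. ISG15, a ubiquitin-like modifier, was at 22.4, 20.8 and 47.7 CPM against 22.4, 18.4 and 20.6 and was called by neither fit (-0.56, SE 0.29, adjusted p = 0.44; paired adjusted p = 0.15). Its groups overlapped, and the control library 3 stood above the other 5. The guanylate-binding protein gene GBP1 was at 61.9, 64.4 and 64.03 against 96.9, 79.6 and 90.6 CPM and was called higher (paired 0.48, SE 0.10, adjusted p = 0.012), and it was the member whose groups were separated upwards. IFITM2, a restriction factor of viral entry, was called higher too (paired 0.35, adjusted p = 0.032). Of 18 nucleic acid sensing genes in the paired fit 3 were called lower and 0 higher, and by the fit of 18 libraries 0 of 19: the RNA sensor IFIH1 (paired -1.14, adjusted p = 0.01), its relative DHX58 (-1.24, 0.013) and STING1, the adaptor of DNA sensing (-0.70, 0.0025). Without pair 1 the paired fit called 1 of them.

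**Figure D3:**
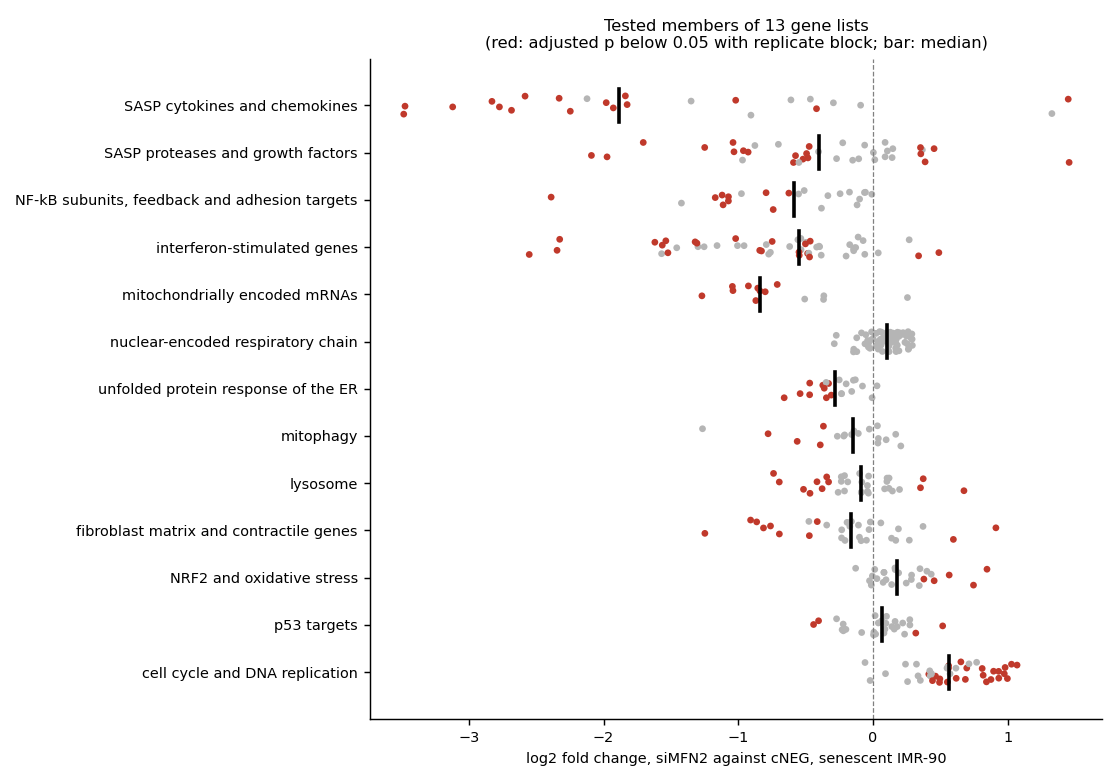
Log2 fold change of siMFN2 against cNEG (fit of 18 libraries) for each tested member of 13 gene lists, with members called in the paired fit in red and the list median as a bar. The median was -1.88 for SASP cytokines and chemokines, -0.84 for mitochondrially encoded mRNAs, 0.10 for the nuclear-encoded respiratory chain and 0.56 for cell cycle genes.

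Mitochondrially encoded mRNAs, which hold the core subunits of the respiratory chain made inside the organelle, were lower with siMFN2 in the paired fit: 9 of 13 were called lower and 0 higher, with a median of -0.91 in that fit. Of all genes the paired fit called 7.19% lower and 7.57% higher. The fit of 18 libraries gave a median of -0.84 and called 0 of 13, with 8 at an unadjusted p under 0.05, and DESeq2 called 2 lower. MT-ND5, a subunit of complex I, was at 3707, 2764 and 3791 CPM with cNEG and 1600.2, 1841 and 813 with siMFN2 (-1.27, SE 0.37, adjusted p = 0.16; paired -1.34, SE 0.25, adjusted p = 0.0092). MT-CO1, of complex IV, was at 11695, 8911 and 9885 against 5324, 6565 and 2899.8 CPM (paired -1.12, SE 0.23, adjusted p = 0.012). Both were lower in each pair without overlap between groups. MT-ND4 (paired -1.10, adjusted p = 0.0098) and MT-CO2 (-1.02, 0.023) were called lower by similar amounts.

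The size differed between pairs. Medians of the 13 were -0.77, -0.24 and -1.57 in pairs 1, 2 and 3. Without pair 1 the paired fit called 0 of them, without pair 2 12 lower, and without pair 3 9 lower and 1 higher, MT-ND6. That gene, the mRNA of the light strand, was at 55.1, 20.9 and 20.95 CPM against 47.8, 40.1 and 27.97 (0.26, SE 0.40, adjusted p = 0.85; paired adjusted p = 0.19), and it is named after its values were seen. Of the ribosomal RNAs, MT-RNR2 was at 4932 ± 1911 against 2937 ± 837 CPM (paired -0.73, adjusted p = 0.029), although libraries selected for poly(A) tails count these only in part.

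Mitochondrially encoded genes held 4.93%, 3.79% and 3.81% of counts in cNEG libraries 1, 2 and 3, and 2.56%, 3.11% and 1.27% with siMFN2. Every siMFN2 library lay below every control, and the mean was 4.18% ± 0.654 against 2.32% ± 0.943 (SD, n = 3). The difference of -1.86 percentage points gave p = 0.1 in an exact two-sided permutation test, the smallest that 3 against 3 libraries allow. The other groups stood at 3.54% ± 0.859 for siMFN1, 3.15% ± 0.427 for siMAVS and 0.736% ± 0.360 for siMFN1+2, and proliferating cells at 1.07% ± 0.242. The ranges of siMFN1 and of siMAVS each overlap that of siMFN2, while all siMFN1+2 libraries lay below all siMFN2 libraries. All siMAVS libraries also lay below all cNEG libraries of senescent cells.

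**Figure D4:**
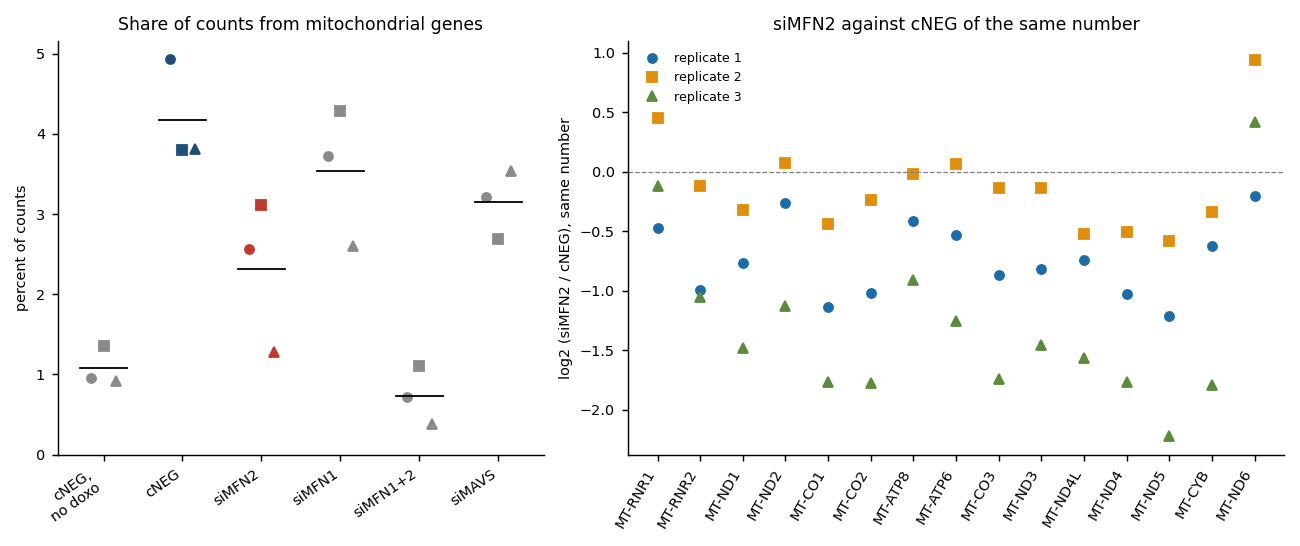
Left, percent of counts from mitochondrially encoded genes by library in the 6 IMR-90 siRNA groups (line, group mean). Right, log2 ratio of siMFN2 to cNEG CPM of the same replicate number for 15 mitochondrial genes in the order of the genome, except MT-ND6 last: by the median of the 13 mRNAs, pair 3 lay lowest (-1.57) and pair 2 nearest to 0 (-0.24).

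Nuclear genes for the same organelle were mostly not called. The 76 nuclear-encoded subunits of the respiratory chain had a median of 0.10, and 0 were called in either fit. In 15 of the 76 every siMFN2 library lay above every control, and in 2 below, against 8.25% and 9.02% of all genes. Of 25 genes of mitochondrial transcription and genome maintenance 0 were called by the fit of 18 libraries and 1 higher in the paired fit, GABPA, a regulator of respiratory genes (0.32, adjusted p = 0.046). Of 14 mitochondrial chaperones and proteases 2 were called higher in the paired fit and 0 by the fit of 18 libraries. HSPD1, the matrix chaperonin, was at 256, 342 and 181 CPM against 366, 475 and 263 (paired 0.51, SE 0.09, adjusted p = 0.006), higher in each pair with groups that overlapped. The peptidase PITRM1 was the other (0.37, adjusted p = 0.026). Without pair 1 the paired fit called 0 of the chaperones and proteases and 0 of the transcription and maintenance genes.

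Within the fusion and fission machinery, MFN2 was the 1 member of 23 that the fit of 18 libraries called. STOML2, a stabiliser of the inner membrane, was called higher in the paired fit (56.1 ± 7.54 against 72.7 ± 8.92 CPM, 0.37, adjusted p = 0.02). Members with the most counts were not called: YME1L1, an inner membrane protease, was at 220.5 ± 33.4 against 222 ± 28.1 CPM and INF2, an actin nucleator at fission sites, at 209 ± 48.5 against 179.8 ± 33.7. OPA1, the inner membrane fusion GTPase, was at 64.7 ± 11.01 against 77.9 ± 8.72 CPM (paired adjusted p = 0.064), and DNM1L, the fission GTPase, at 75.9 ± 3.99 against 86.1 ± 3.38 (paired adjusted p = 0.17), both named after their values were seen. Of 25 genes of ER-mitochondria contacts and calcium, 0 were called by the fit of 18 libraries. In the paired fit the calcium channel ITPR2 was lower (-0.57, adjusted p = 0.0084), and the lipid carrier OSBPL8 (0.40, 0.024) and the calcium uptake regulator MICU3 (0.57, 0.012) were higher. This count, 1 lower and 2 higher of 25, is close to the 7.19% and 7.57% of all genes, and without pair 1 it was 0 and 0. Of 19 genes of phosphatidylserine and phosphatidylethanolamine handling SERINC2 rose, and PCYT2, of ethanolamine lipid synthesis, was called higher in the paired fit (0.47, adjusted p = 0.019), in which 1 of the 19 was called without pair 1.

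Mitophagy genes mark damaged mitochondria for the lysosome. Of 18, the paired fit called 4 lower and 0 higher, against 7.19% and 7.57% of all genes, and the fit of 18 libraries called 0. SQSTM1, the autophagy receptor p62, was at 806, 807 and 831 CPM with cNEG and 433, 514 and 478 with siMFN2 (-0.78, SE 0.21, adjusted p = 0.12; paired -0.78, SE 0.10, adjusted p = 0.0016). The controls were close to each other and far above the siMFN2 libraries. The receptor genes BNIP3 (paired -0.54, adjusted p = 0.012) and OPTN (-0.39, 0.022) and the kinase gene PINK1 (-0.39, 0.031) were lower by less. Without pair 1 the paired fit called 1 of 18 lower, against 0.919% of all genes. Of 32 lysosomal genes the paired fit called 8 lower and 3 higher (0 and 1 without pair 1, 5 and 2 without pair 2, 7 and 4 without pair 3) and the fit of 18 libraries 0. The sialidase NEU1 was at 82.5 ± 13.7 against 50.9 ± 6.63 CPM (-0.70, SE 0.14, adjusted p = 0.052; paired adjusted p = 0.0045). The 3 called higher were CTSB, given above, the proton pump subunit ATP6V1A (0.38, adjusted p = 0.028) and the fucosidase FUCA1, which was at 48.9 ± 10.00 against 78.2 ± 18.7 CPM (paired 0.67, adjusted p = 0.002).

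In the unfolded protein response, which raises chaperones when proteins misfold in the ER, 9 of 20 genes were called lower and 0 higher in the paired fit (median -0.27 in that fit), 1 lower without pair 1, and 0 by the fit of 18 libraries (3 at an unadjusted p under 0.05, and 0 by DESeq2). Of all genes the paired fit called 7.19% lower and 7.57% higher, and 0.919% lower without pair 1. HSP90B1, the ER form of HSP90, was at 1853, 1309 and 1589.7 CPM with cNEG and 1117, 988 and 1161 with siMFN2 (paired -0.53, SE 0.11, adjusted p = 0.014). DNAJB9, a co-chaperone, was at 95.3, 99.7 and 59.7 against 59.7, 68.1 and 33.2 CPM (paired -0.69, SE 0.09, adjusted p = 0.0023). Each pair went down in both genes, but the DNAJB9 groups overlapped because library 3 was low in both. HERPUD1, of ER-associated degradation (paired -0.47, adjusted p = 0.0076), and the stress sensor ERN1 (-0.47, 0.035) were lower as well. The chaperone HSPA5 and the secreted CRELD2, whose promoters are shown above with that of HSP90B1, were called lower by small amounts in the paired fit (-0.37 and -0.34, adjusted p = 0.039 and 0.042). In the fit of 18 libraries the list median was -0.28 with siMFN2, -0.34 with siMFN1, -0.31 with siMFN1+2 and -0.34 with siMAVS.

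The integrated stress response, driven by ATF4, had 5 of 21 called lower and 0 higher in the paired fit, 1 lower without pair 1, and 0 by the fit of 18 libraries. Of all genes the paired fit called 7.19% lower and 7.57% higher, and 0.919% lower without pair 1. VLDLR, a lipoprotein receptor, was at 51.6, 28.6 and 28.4 CPM against 22.98, 10.99 and 10.3 (paired -1.33, SE 0.11, adjusted p = 0.00025), without overlap. The pseudokinase gene TRIB3 (-0.36, adjusted p = 0.046) and the transcription factor genes ATF3 (-0.68, adjusted p = 0.026), DDIT3 (-0.61, 0.042) and CEBPG (-0.47, 0.03) were lower as well. Serine and one-carbon metabolism had 3 of 20 called lower and 1 higher, among them the mitochondrial folate enzyme MTHFD2 (-0.41, adjusted p = 0.029), the folate dehydrogenase ALDH1L1 (-1.27, 0.0086), the transporter SLC1A4 (-0.47, 0.019) and, upwards, thymidylate synthase TYMS (0.56, 0.005). All genes gave 7.19% and 7.57%, and the fit of 18 libraries called 0 of the 20. Without pair 1 the paired fit called 0 as well, when it called 0.919% of all genes lower and 0.805% higher.

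BST1 and AMPD3 belong to a list of 28 tested NAD and purine genes, in which the fit of 18 libraries called those 2 lower and the paired fit 6 lower and 2 higher (3 and 1 without pair 1). For all genes the paired shares were 7.19% and 7.57% (0.919% and 0.805% without pair 1). NT5E, the surface enzyme that makes adenosine from AMP, was at 1564, 1067 and 1468 CPM with cNEG and 901, 669.9 and 865 with siMFN2 (-0.75, SE 0.18, adjusted p = 0.097; paired -0.75, SE 0.10, adjusted p = 0.0021). No siMFN2 library reached a control. ADA, which deaminates adenosine, was lower (paired -0.77, adjusted p = 0.017), while PRPS1, the first step towards purines, was at 46.8, 96.5 and 47.5 against 116, 176 and 111 CPM (paired 1.13, SE 0.11, adjusted p = 0.00044). All PRPS1 values with siMFN2 were above all controls. IMPDH2, of guanine nucleotide synthesis, was the other called higher (0.34, adjusted p = 0.028).

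Cell cycle and replication genes were called higher with siMFN2 in the paired fit, from the low level of arrested cells. It called 24 of 41 higher and 0 lower (median 0.56), against 7.57% and 7.19% of all genes. The fit of 18 libraries called 0 with 9 at an unadjusted p under 0.05, DESeq2 0, and in 14, and in 8.25% of all genes, every siMFN2 library lay above every control. Without pair 1 the paired fit called 2 higher, against 0.805% of all genes. In the fit of 18 libraries the list median was 0.73 with siMFN1, 0.31 with siMFN1+2 and 0.14 with siMAVS. With siMFN2 in SK-MEL-103 it was 0.40, and the paired fit there called 19 of 41 higher and 1 lower. MKI67, the proliferation marker, was at 10.6, 19.3 and 35.5 CPM with cNEG and 33.4, 25.4 and 69.05 with siMFN2 (0.97, SE 0.58, adjusted p = 0.5; paired 1.00, SE 0.19, adjusted p = 0.01). It was higher in each pair with groups that overlapped, and siMFN2 libraries stayed far under the 473 ± 15.5 CPM of proliferating cells. FOXM1, a mitotic transcription factor, was at 12.9 ± 5.18 against 27.05 ± 15.7 CPM (paired 0.99, adjusted p = 0.002), and CDK1, the mitotic kinase, at 5.01 ± 0.579 against 10.1 ± 3.26 (paired 0.95, adjusted p = 0.0045). BIRC5, or survivin (0.96, adjusted p = 0.0037), and TOP2A, the target of doxorubicin (0.96, 0.0074), were called higher as well.

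Inhibitors of the cycle gave mixed results. CDKN1A, the p53-induced inhibitor p21, was at 1873, 1943 and 2165 CPM against 2339, 2324 and 2565 (0.27, SE 0.13, adjusted p = 0.36; paired adjusted p = 0.11). CDKN2B, the inhibitor p15, was called lower in the paired fit (5.85 ± 0.873 against 3.49 ± 0.448 CPM, -0.71, adjusted p = 0.026), and CDKN3, a phosphatase of cycling cells, higher (0.80, 0.03). Of 29 p53 targets 2 were called lower, GADD45A (-0.45, adjusted p = 0.016) and TIGAR (-0.42, 0.031), and 2 higher, ZMAT3 (0.52, 0.038) and AEN (0.32, 0.035), and the fit of 18 libraries called 0. For the p53 targets these shares are no larger than the 7.19% and 7.57% of all genes, and without pair 1 the paired fit called 0 of the p53 targets and 0 of the cycle inhibitors.

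NRF2 and oxidative stress genes had 5 of 26 called higher and 0 lower in the paired fit (2 without pair 1, 8 without pair 3), and CAT rose in the fit of 18 libraries as well. Of all genes the paired fit called 7.57% higher and 7.19% lower. NQO1, the quinone reductase, was at 53.1, 50.9 and 94.1 CPM against 58.6, 74.8 and 223 (paired 0.64, SE 0.17, adjusted p = 0.035), mostly in pair 3. HMOX1, heme oxygenase, was at 13.3 ± 5.04 against 22.3 ± 9.78 CPM (paired 0.72, adjusted p = 0.0034). TKT, of the pentose phosphate pathway, was called higher as well (0.38, adjusted p = 0.02). Among matrix and contractile genes 8 of 29 were called lower and 2 higher in the paired fit (4 and 0 without pair 1, 13 and 3 without pair 3), and 0 of 30 by the fit of 18 libraries. Chains of collagen VI parted: COL6A1 was at 4648 ± 2690.3 against 1957 ± 771 CPM (paired -1.17, adjusted p = 0.0016) and COL6A2 was lower too (-0.81, 0.0062), while COL6A3 was at 1293 ± 554 against 2433 ± 864 CPM (0.94, 0.0029). LOX, the collagen crosslinker (-0.92, 0.0014), and COL4A1 (-0.84, 0.0045) were lower and THBS1, thrombospondin, higher (0.59, 0.026). Of 25 cholesterol genes ACAT2 was called higher in the paired fit (0.67, 0.0053), which called 0 of them without pair 1.

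How siMFN2 differed from the other mitofusin siRNAs was tested directly. Against siMFN1 the fit of 18 libraries called 43 genes higher and 29 lower, and the paired fit 10.7% of genes higher and 9.82% lower. A set of 3 of those called by the fit of 18 libraries, named after their values were seen, were the transporter SLC16A6 at 23.8 ± 0.527 CPM with siMFN2 and 2.82 ± 1.39 with siMFN1, the guidance factor SEMA3B at 74.3 ± 17.8 and 22.2 ± 1.21, and VEGFC, a lymphatic growth factor, at 78.1 ± 23.7 and 168 ± 25.9. With cNEG these genes were at 15.1 ± 6.10, 37.2 ± 6.50 and 109 ± 8.50 CPM. By mean, siMFN2 and siMFN1 thus lay on opposite sides of cNEG in each. None of the 3 was called by that fit for siMFN2 against cNEG. SASP cytokines, however, split in the paired fit, with 3 of 22 higher (IL6, LIF and CCL3) and 5 lower (IL11, IL33, CXCL5, CXCL12 and CCL2) with siMFN2 than with siMFN1. CXCL8 was at 24.5 ± 13.4 and 23.6 ± 17.7 CPM (difference 0.15, adjusted p = 0.62), CCL2 at 11.1 ± 1.62 and 22.3 ± 5.19 (-1.00, adjusted p = 0.00099) and CCL3 at 9.56 ± 7.99 and 2.22 ± 2.20 (2.23, adjusted p = 0.00065). IGFBP2 stood far apart, at 38.02 ± 14.2 CPM with siMFN2 and 6.29 ± 2.08 with siMFN1 (2.58, SE 0.08, adjusted p = 4.5e-06).

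Further lists differed between siMFN2 and siMFN1. Of 13 mitochondrially encoded mRNAs the paired fit called 11 lower and 0 higher with siMFN2 (median -0.57), MT-ND5 at 1418 ± 537 CPM against 2484 ± 377 (-0.88, adjusted p = 0.0043). Of 26 NRF2 genes it called 12 lower and 3 higher (GPX1, GPX4 and ABCC1; median -0.22), among them NQO1 at 119 ± 90.7 against 234 ± 139.8 CPM (-1.08, adjusted p = 0.00047). In neither list did the fit of 18 libraries call a member lower, and it called GPX4, which detoxifies lipid peroxides, higher (0.50, adjusted p = 0.038).

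Cells with siMFN1+2 were compared with those with siMFN2 in the same way. In the paired fit 4.35% of genes were higher with siMFN2 than with siMFN1+2 and 3.53% lower. Among mitochondrially encoded mRNAs 13 of 13 were higher (median 1.86), with MT-CO1 at 4929.5 ± 1864 CPM against 1314 ± 626 (1.95, SE 0.06, adjusted p = 5.1e-08). Of SASP cytokines 12 of 22 were higher and 0 lower, with CXCL8 at 24.5 ± 13.4 against 8.21 ± 6.34 CPM (1.65, adjusted p = 0.00032) and IL6 at 25.3 ± 11.9 against 11.9 ± 5.27 (1.08, adjusted p = 1.1e-05). Of interferon-stimulated genes 21 of 46 were higher and 0 lower, and of NF-kB genes 9 of 22 and 0. The fit of 18 libraries called none of these, and siMFN1+2 also held MFN1 at 11.3 ± 4.999 CPM.

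In senescent SK-MEL-103, MFN2 went from 100.1 ± 7.34 to 20.5 ± 0.718 CPM with siMFN2 (-2.29, SE 0.11, adjusted p = 2.3e-09). The fit of 18 libraries of that line called 12 genes, 0.0669% of 17945, and 8 of them were interferon-stimulated genes that fell, of 45 tested (median -0.45), among them IFI6, IFI27, IFI44L, IFIT1, OAS1, OAS2 and RSAD2. The other 4 were MFN2, STMN4 and LAMA4, which fell, and WBP1L, which rose. IFI6 went from 70.9 ± 6.18 to 24.6 ± 4.10 CPM there (-1.52, SE 0.16, adjusted p = 0.00018), and in IMR-90 it was at 26.6, 21.6 and 69.6 against 18.8, 12.4 and 8.65 (adjusted p = 0.093; paired adjusted p = 0.042). The paired fit in SK-MEL-103 called 33 of the 45 lower, where 3.61% of genes were lower and 3.17% higher, and 3 of 16 SASP cytokines lower (IL24, CXCL8 and CSF1) and 3 higher (IL11, CCL2 and CCL3). Melanocyte markers summed to 611 to 685 CPM in the controls of that line, with MLANA at 0, so its defining markers were only in part present.

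The difference between the lines was tested directly, with a positive value where the log2 effect was the higher one in SK-MEL-103. In the fit of 36 libraries 9 genes differed, 0.0431% of 20892, 8 of them among the 43. Both tests use the same IMR-90 libraries, so this overlap is partly built in. MELTF, at 1646 ± 83.8 CPM in SK-MEL-103 with cNEG and 1515 ± 106 with siMFN2, differed by 1.96 (SE 0.26, adjusted p = 0.00059), and its level there was far above that in IMR-90. In IMR-90 its mean was also below cNEG with siMFN1, siMFN1+2 and siMAVS (0.933, 1.16 and 0.763 CPM). With the replicate block, 2.75% of genes differed upwards and 3.08% downwards. Of 23 SASP cytokines 6 then differed, all upwards (IL1A, IL1B, IL11, CXCL1, CXCL5 and CCL2), with CCL2 at 7.45 ± 2.67 against 12.7 ± 4.85 CPM in that line (difference 2.62, SE 0.21, adjusted p = 0.0002). Of 52 interferon-stimulated genes 2 differed, IFI44 upwards and GBP1 downwards, and of 13 mitochondrially encoded mRNAs 3 differed upwards, with MT-ND5 at 1273 ± 111 against 1272 ± 220.2 CPM (1.32, adjusted p = 0.03). In SK-MEL-103 SERINC2 was at 0.335 ± 0.138 CPM with cNEG and BST1 at 0.888 ± 0.429, far below their levels in IMR-90.

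**Figure D5:**
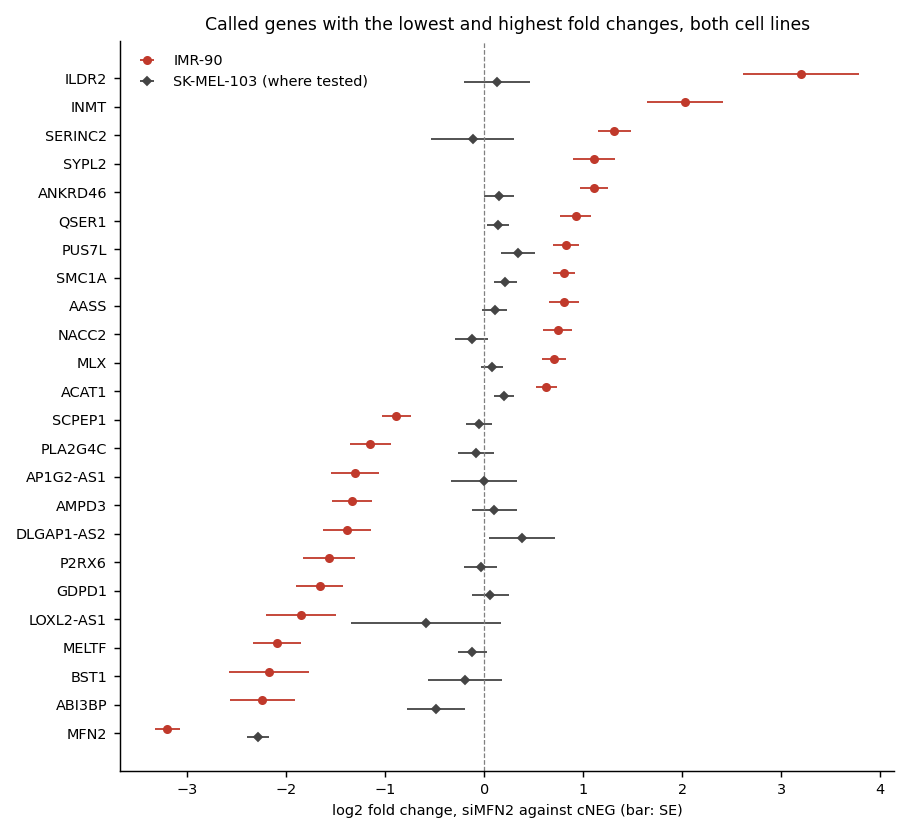
Log2 fold change of siMFN2 against cNEG with its SE in IMR-90 (red circles, the contrast that chose the genes) and in SK-MEL-103 (grey diamonds, where tested). Genes are the 12 lowest and 12 highest called in IMR-90 whose groups did not overlap and whose mean log2 CPM reached the set minimum. Called genes outside this rule, some with larger changes, are not shown. MFN2 was at -3.20 in IMR-90 and -2.29 in SK-MEL-103.

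Among the 25 named genes that the fit of 18 libraries called, 2, MFN2 and MELTF, kept the call with each of the 6 libraries left out in turn. With control library 1 left out 2 genes of all were called, and with siMFN2 library 1, 2 or 3 left out 3, 6 and 10. All 25 were called in the paired fit, and 17 of them without pair 1.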

How the data were processed

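The authors deposited 1 table of read counts per gene for 48 libraries, matched to samples by title. Per the labels' protocols, RNA with poly(A) tails was made into stranded libraries without molecular identifiers. Per the submitters' processing notes, reads were trimmed with Trim Galore 0.6.7, aligned with STAR 2.7.10a to GRCh38 and counted with featureCounts. The annotation release, strand setting and handling of multiply mapped reads are not given in the sources used here. Symbols were found for 48880 of 48898 IDs, and positions for 46876 from GENCODE 29, which may not be the release used.

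Counts were filtered on low values per fit, scaled by TMM and tested with edgeR 4.0.16 (quasi-likelihood) in R 4.3.3, with Benjamini-Hochberg adjustment over all genes tested. Each SE is the size of the log2 fold change divided by the square root of that test's F value. It was therefore not estimated apart from the test. The fit of 18 libraries took all groups of the IMR-90 siRNA experiment, without a replicate term, and the paired fit took replicate number, from the titles, as a block. Pairing was checked by correlating deviations from group means between siMFN2 libraries and those of the same number, which gave 0.466, 0.722 and 0.703 for cNEG, 0.456, 0.781 and 0.756 for siMFN1, 0.499, 0.805 and 0.751 for siMFN1+2, and 0.225, 0.398 and 0.422 for cNEG in SK-MEL-103. For siMAVS it gave -0.107, 0.529 and -0.437, and for proliferating cNEG cells 0.104, -0.576 and -0.377, so the numbers do not pair these groups. Fits with a block that include them stand among the alternatives alone. The 1 SK-MEL-103 siMFN2 library without a number was taken as replicate 1. Alternatives were DESeq2 1.42.0, another scaling, no filter, other sets of groups and libraries left out. The scripts were tested on simulated data.

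Totals of the 18 libraries ranged from 15540397 to 79204217 counts. No 2 of the 3 siMFN2 libraries, or of the 3 cNEG libraries, of senescent IMR-90 agreed within sampling noise. Named genes are 12 pre-set ones, the up to 12 called genes of largest change in each direction whose groups did not overlap and whose mean log2 CPM reached 1, up to 4 per list and direction, the fusion genes with most counts, and 5 genes most like SERINC2. The lists and members were chosen with earlier results of these data known. A few withheld genes are not reported here.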

Additional observations from a re-analysis of the deposited data

Results flagged for a closer look

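The log2 effect of siMFN2 differed between SK-MEL-103 and IMR-90 for 9 genes by edgeR's test of the difference itself over 36 libraries (Benjamini-Hochberg adjusted), and each of the 9 values is positive because the effect was the higher one in SK-MEL-103. MFN2 itself differed by 0.91 (adjusted p = 0.017), with a smaller reduction in SK-MEL-103. MELTF differed by 1.96 (adjusted p = 0.00059) and KIF5C by 2.08 (adjusted p = 0.00059). GDPD1 differed by 1.72 (adjusted p = 0.014) and TSPAN6 by 1.16 (adjusted p = 0.017). NAP1L2 differed by 2.37 (adjusted p = 0.03). PCDHA10 and PCDHA7 differed by 2.06 and 2.48 (adjusted p = 0.03 and 0.031), and both belong to the protocadherin alpha cluster, whose members share exons, so their counts are uncertain. POU2F2-AS2 differed by 3.87 (adjusted p = 0.03) and lies opposite POU2F2, whose reads cannot be told apart from its own without a known strand setting. All but PCDHA7 were also called lower in IMR-90, in a test that uses the same IMR-90 libraries. With siMFN1, siMFN1+2 and siMAVS in IMR-90, MELTF had means of 0.933, 1.16 and 0.763 CPM, against 3.63 with cNEG and 0.807 with siMFN2. TSPAN6 had 27.3, 28.9 and 31.6 against 48.9 and 28.0. KIF5C had 0.359, 0.413 and 0.237, and GDPD1, NAP1L2, PCDHA10 and POU2F2-AS2 were also below cNEG by mean with each siRNA. MFN2 stood at 144 and 166 CPM with siMFN1 and siMAVS, and PCDHA7 at 0.381 with siMFN1. With cNEG and siMFN2, POU2F2-AS2 had means of 0.928 and 0.108 CPM in IMR-90 and 0.0915 and 0.146 in SK-MEL-103. In IMR-90, PCDHA7 had means of 0.419 and 0.0718 CPM and KIF5C of 1.22 and 0.241. The differences in these genes therefore rest on low counts.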

How the results depend on the processing

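For siMFN2 against cNEG, edgeR's fit of 18 libraries called 43 genes, DESeq2 306, no filter on low counts 17 and the older edgeR fit 16. With a term for the earlier or later range of library labels the count was 222, and with the 6 libraries alone 1. With a replicate block the counts were 226 over all groups, 514 over senescent groups, 4627 over the mitofusin and control groups and 2670 over the 6 libraries, and 302, 2304 and 4155 without pair 1, 2 or 3. Leaving out 1 library gave 2 to 99: 2, 99 and 34 without cNEG 1, 2 or 3. Against siMFN1 the count of 72 became 233 with DESeq2, 28 without a filter, 2 over the groups compared, 141 and 3510 with the block over all groups and the groups compared, and 5 to 49 with 1 library left out. Against siMFN1+2 the count of 1 became 22 with DESeq2, 11 without a filter, 0 over the groups compared (408 at an unadjusted p under 0.05 by edgeR), 9 and 1382 with the block, and 1 to 18 with 1 library left out. Against siMAVS the count of 4 became 27 with DESeq2, 1 over the groups compared, and 2 to 14 with 1 library left out. The block gave 7 and 0 there (339 at an unadjusted p under 0.05 by edgeR for the latter), but the numbers do not pair siMAVS, nor proliferating cells, with siMFN2, so these values and those with the block over all groups or the senescent groups are no paired analysis. In SK-MEL-103 the count of 12 became 21 with DESeq2 and 1145 with the block over the groups compared. The difference between lines, 9 genes, became 31 with DESeq2, 2 without a filter, and 45 and 1140 with the block. The causes were not tested.

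Of 25 named called genes, 25 were called under DESeq2, the other scaling and the block over 6 libraries, 17 over senescent groups only, 14 in the older edgeR fit, 10 without a filter and 1 over the 6 libraries alone, and 0 changed sign. Among 98 named genes not called, 3 took the opposite sign without siMFN2 library 3, and with each library left out in turn IGFBP5 ranged from -0.49 to 1.59, FGF7 from -0.27 to 1.26 and AREG from -0.50 to 1.45. The mitochondrial share differed by -1.68 points without the ribosomal RNAs and by -1.34 to -2.26 points with 1 library left out, and paired sign flips gave an exact p = 0.25, the smallest possible. The older edgeR fit, the fits without a pair, those of senescent groups and that of mitofusin and control groups were chosen after seeing the data. Counts in the shallowest pair, near 26137882 per library, limit genes under 1 CPM most.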
